A study of Macaca fascicularis with 64 samples.

Results

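The genes described here encode 6 inhibitors of cyclin-dependent kinases (CDKN1A, CDKN1B, CDKN2A, CDKN2B, CDKN2C and CDKN2D), the 3 D-type cyclins (CCND1, CCND2 and CCND3) and the kinase CDK4. They were looked up by symbol, and all 10 were found among the 21041 macaque genes counted in single islet cells of cynomolgus monkeys. The islets came from 16 untreated animals, 8 young and 8 old, with 4 females (YF1 to YF4 and OF1 to OF4) and 4 males (YM1 to YM4 and OM1 to OM4) in each age group. Each monkey gave 4 libraries, and 1 monkey was processed per collection day, so that day and animal cannot be told apart. Cells with over 800 genes and over 10000 unique molecular identifiers (UMIs) were assigned to α-, β-, δ- or PP-cells by the highest of the hormone genes GCG, INS, SST and PPY.

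D-type cyclins activate CDK4 and its relative CDK6, which phosphorylate the retinoblastoma protein and free E2F factors to start DNA synthesis. The INK4 proteins, encoded by CDKN2A to CDKN2D, bind these kinases and keep the cyclins off them, whereas the CIP/KIP proteins, p21 from CDKN1A and p27 from CDKN1B, bind whole cyclin-kinase complexes. In rodents, cyclin D2 and CDK4 are needed for the growth of β-cell mass after birth, and p16 from CDKN2A is a widely used marker of islet aging. CDKN2A also gives rise to the p53 activator ARF from another reading frame, and counts per gene do not separate the transcripts.

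Among 5908 retained cells, 4503 were α-cells (178 to 362 per monkey) and 1219 were β-cells (11 to 194 per monkey). δ-cells (112) reached 5 cells in 11 monkeys, of which 4 were old, and PP-cells (74) did so in the young males YM1 and YM4 and in the old monkeys OF1, OF2, OM2 and OM4, with 33 of them in OF2. Counts per monkey lay between 21982838 and 35850398 UMIs. The median α-cell held 68716 UMIs, the median β-cell 78172 (68395.5 in young and 84922 in old monkeys), the median δ-cell 47573 and the median PP-cell 48931.5. The hormones chose the types, with pooled levels of 75940 CPM (UMIs per 1000000 macaque UMIs) of GCG in α-cells, 60336 of INS in β-cells, 84639 of SST in δ-cells and 87234 of PPY in PP-cells. Of markers that the typing did not use, the transcription factor gene IRX2 stood at 473 CPM in α- and 39.998 in β-cells, MAFA at 5.46 and 117, and IAPP at 49.4 and 2707. GCG was also counted at 19155 CPM in β-, 25032 CPM in δ- and 34919 CPM in PP-cells, and the part of RNA from other cells in the levels given below was not tested. HHEX, a transcription factor of δ-cells, reached 386 CPM in δ-cells and 2.10 CPM in α-cells. Of the 5 listed PP-cell markers besides PPY, 3 were highest in PP-cells, ETV1 (179 CPM, against 124 in δ-cells), ID2 (86.8, against 55.1) and SERTM1 (6.76, against 0.183), whereas AQP3 was near 0 (0.780 CPM) and MEIS2 was lower in PP-cells (209 CPM) than in δ-cells (262 CPM). In 87 α-, 130 β-, 11 δ- and 16 PP-cells the highest hormone was below 2 times the second.

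Levels are given as CPM of the summed cells of a type in each monkey. Each UMI was taken as 1 transcript, so that genes were compared without scaling by length. Differences between genes in capture, annotation or unique mapping were not corrected, and comparisons of 1 gene with another carry this limit. CCND2 and CDK4 were the most abundant members in all 4 types, apart from δ-cells, where CCND3 exceeded CCND2. In α-cells the mean levels over 16 monkeys ran from CCND2 (193 ± 81.8 CPM, SD) and CDK4 (94.4 ± 15.1) through CCND3 (38.0 ± 8.92), CDKN1A (28.7 ± 10.2) and CDKN1B (24.8 ± 10.3) to the INK4 genes (8.00 to 13.6) and CCND1 (6.53 ± 3.91). The order in β-cells differed in the place of CCND1, which stood at 38.4 ± 27.9 CPM beside CCND3 (44.2 ± 22.5), above CDKN1A (30.9 ± 17.5) and CDKN1B (27.2 ± 13.05). Every monkey had UMIs of all 10 genes in α-cells, and in β-cells the genes CDKN2A, CDKN2B, CDKN2C and CDKN2D each lacked UMIs in 1 monkey.

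**Figure D1:**
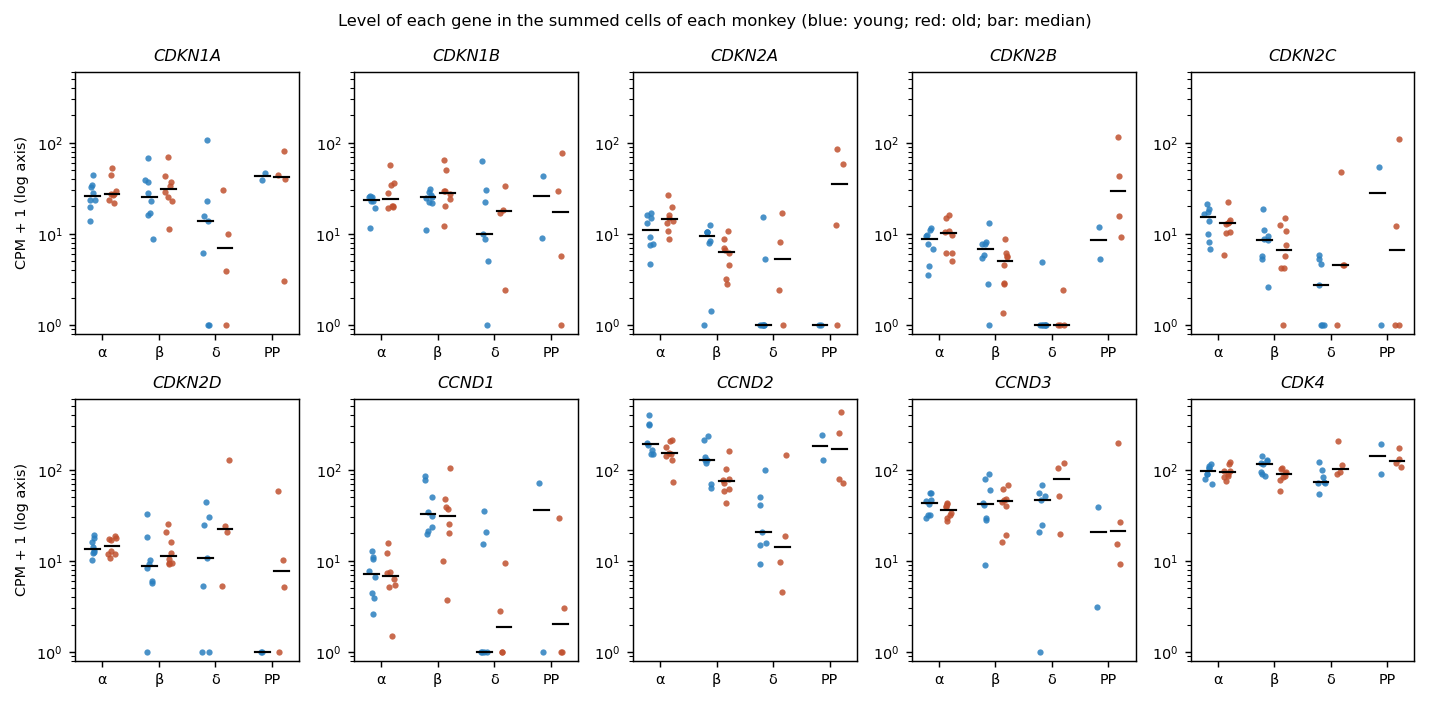
Level of each of the 10 genes by cell type, as CPM + 1 on a log axis, with 1 point per monkey (blue for young, red for old) and bars at the medians. CCND1 stands higher in β-cells than in α-cells, CCND2 is low in δ-cells, and CDKN2B lies at or near 0 in δ-cells.

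The types were compared within monkeys by edgeR's quasi-likelihood test with Benjamini-Hochberg adjustment over 12899 genes, and all 10 members passed the filter on low counts. Between α- and β-cells 2 members passed the threshold of 0.05, CCND2 higher and CCND1 lower in α-cells, beside 25% of all genes. Between α- and δ-cells 3 members were higher in α-cells (CCND2, CDKN2A and CDKN2B), beside 23.2% of all genes. Between β- and δ-cells 3 members were higher in β-cells (CCND1, CCND2 and CDKN2B), beside 19.8% of all genes. PP-cells differed from α-cells in none of the 10 members (2 at an unadjusted p under 0.05, and 2 called by DESeq2, CDK4 and CDKN2B), beside 6.61% of all genes. They differed from β-cells in 1 member, CDKN2B, beside 17.2% of all genes. Against δ-cells they were higher in 3 members (CCND2, CDKN2B and CDKN1A), beside 10.3% of all genes. With 10 members, 0 to 3 calls in a comparison say nothing particular about them beside these shares, and the results below are those of single genes.

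These comparisons share monkeys and scaling. With the TMM scaling used here, the median log2 fold change of all genes was 0.47 for α- over δ-cells, 0.35 for β- over δ-cells, 0.37 for α- over PP-cells and 0.26 for β- over PP-cells, and DESeq2's size factors put these medians at 0.20, 0.02, 0.13 and -0.03. The median of the 10 members was 0.92 for α- over δ-cells, 0.98 for β- over δ-cells, -0.37 for α- over PP-cells and -0.67 for β- over PP-cells. Each fold change of a called member in a comparison with δ- or PP-cells is therefore also given relative to the median of all genes.

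CCND2 encodes the D-type cyclin best known from rodent β-cells. In α-cells it ranged from 71.9 CPM in OF1 to 397 CPM in YM2, with a median of 171. In β-cells the lowest level was 41.8 CPM (OF3), the median 89.5 and the highest 232 (YM3). The ranges overlapped, but 15 of 16 monkeys had more CCND2 in α-cells than in β-cells, and the log2 fold change was 0.95 ± 0.25 (SE, adjusted p = 0.00297).

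δ-cells stood apart from the other types in CCND2. Its level there was between 3.60 CPM (OM2) and 144 CPM (OF1), with a median of 17.9, and 101 of the 102 UMIs in OF1 came from a single cell. The level in α-cells was higher than in δ-cells in 10 of 11 monkeys (log2 fold change 2.92 ± 0.35, or 2.46 relative to all genes, adjusted p = 3.12e-09). The level in β-cells was likewise higher in 10 of 11 (1.98 ± 0.34, or 1.62 relative to all genes, adjusted p = 1.38e-05). OF1 was the exception in both counts. In PP-cells CCND2 lay between 71.2 CPM (OM4) and 427 CPM (OF1, where 202 of 208 UMIs were in 1 cell), with a median of 182, and all 5 monkeys with both types had more CCND2 in PP- than in δ-cells (log2 fold change of δ over PP -2.80 ± 0.41, or -2.71 relative to all genes, adjusted p = 2.29e-06). In the order of means (PP, α, β, δ) the neighbours PP and α did not differ beyond their spread, and PP- and β-cells did not pass the test either (-0.82 ± 0.37 for β over PP, adjusted p = 0.119). That difference was called by DESeq2 (-1.05, adjusted p = 0.0383), with RLE size factors (-1.04, 0.0439) and without the deepest cells (-1.26, 0.00656). The call between δ- and PP-cells was lost when at least 10 cells per monkey were required, which left OF2 as the only monkey with PP-cells (-1.69, adjusted p = 0.145).

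CCND1, the cyclin D1 gene, showed the opposite order between the main types. In α-cells it stayed between 0.486 CPM (OF4) and 14.6 CPM (OF1), with a median of 5.99. β-cells reached from 2.72 CPM (OF4) to 103 CPM (OM3), with a median of 31.8. The level was higher in β-cells in 15 of 16 monkeys, and the log2 fold change of α over β was -2.55 ± 0.48 (adjusted p = 3.66e-05). In δ-cells 6 of 11 monkeys had no CCND1 UMI, and the highest level was 34.5 CPM (YF1). β-cells exceeded δ-cells in 10 of 11 monkeys by a log2 fold change of 2.90 ± 0.68 (2.55 relative to all genes, adjusted p = 0.00145). In PP-cells 3 of 6 monkeys had none, and the highest level, 69.9 CPM in YM1, came from 26 UMIs of 1 cell. All 6 monkeys with PP-cells had more CCND1 in β- than in PP-cells, but this difference did not pass (1.86 ± 0.81, adjusted p = 0.104). It was called without YM1 (2.94, adjusted p = 0.0274) and after thinning (2.49, 0.0333). The remaining neighbours in the order (PP, δ and α) did not differ beyond their spread.

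CCND3, the third D-type cyclin, did not pass the test between any pair of types. Its medians were 38.3 CPM in α-cells (range 26.4 to 55.1), 43.0 in β-cells (8.04 to 89.0), 50.2 in δ-cells (0 to 119) and 20.2 in PP-cells (2.13 to 196). The ranges of all types overlapped, and the log2 fold changes were between -0.14 and 0.20. The highest value in PP-cells rested on 65 of 69 UMIs in 1 cell of OM4, and in OF1 all 74 UMIs of the δ-cells lay in 1 cell.

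The make-up of the D-type cyclin transcripts therefore differed between the types. CCND2 gave 79.5% ± 8.05 (SD, n = 16) of the summed CPM of the 3 genes in α-cells, 55.3% ± 10.6 (n = 16) in β-cells, 37.5% ± 28.5 (n = 11) in δ-cells and 73.9% ± 30.1 (n = 6) in PP-cells. CCND1 gave 3.04% ± 2.62 in α-cells and 20.4% ± 12.3 in β-cells. CCND2 was the highest of the 3 in all 16 monkeys in α-cells, in 15 of 16 in β-cells and in 5 of 6 in PP-cells. In δ-cells CCND3 was the highest in 7 of 11 monkeys and CCND2 in the other 4. The sum of the 3 genes was 238 ± 83.0 CPM in α-cells, 191 ± 71.8 in β-cells, 95.6 ± 64.4 in δ-cells and 264 ± 106 in PP-cells.

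**Figure D2:**
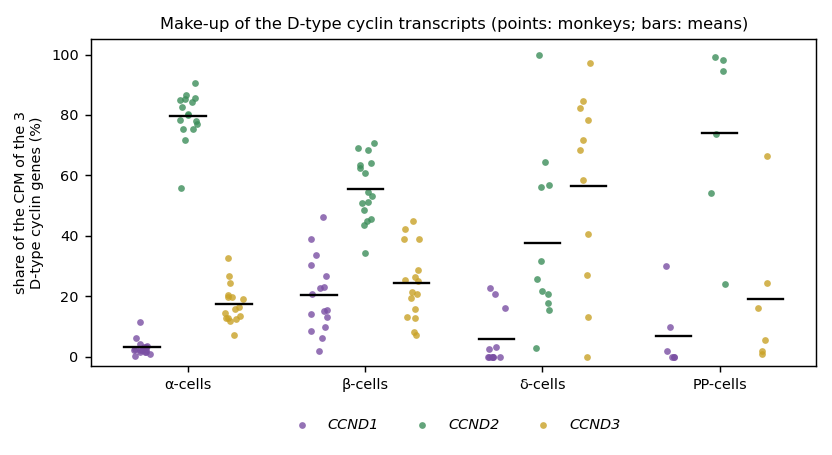
Share of each D-type cyclin gene in the summed CPM of CCND1, CCND2 and CCND3, in percent, by cell type, with 1 point per monkey and bars at the means. CCND2 holds 79.5% of the transcripts in α-cells and 55.3% in β-cells on average, whereas in δ-cells the mean of CCND3 is the highest.

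CDK4, the kinase that the cyclins activate, varied least of the 10 genes between monkeys in α-cells (coefficient of variation 15.99%). Its level there was between 68.0 CPM (YM2) and 120 CPM (OM3), with a median of 92.4. The medians were 93.9 CPM in β-cells (57.5 to 142), 87.8 in δ-cells (53.3 to 204) and 124 in PP-cells (89.3 to 191). α-, β- and δ-cells did not differ beyond their spread, with log2 fold changes of -0.08 ± 0.17 for α over β and 0.08 ± 0.20 for α over δ. All 6 monkeys had more CDK4 in PP-cells than in α- and in β-cells, with log2 fold changes of -0.59 ± 0.25 for α over PP and -0.51 ± 0.25 for β over PP, which edgeR did not call (adjusted p = 0.142 and 0.155). DESeq2 called both (adjusted p = 0.00510 and 0.00429). PP-cells against δ-cells did not pass (-0.67 ± 0.26 for δ over PP, adjusted p = 0.0918), but did without OM4 (-0.89, 0.0248) and under 4 other alternatives. CDK6, the other partner of these cyclins and not one of the 10 genes, had pooled levels of 4.22 CPM in α- and 4.38 CPM in β-cells.

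The CIP/KIP genes were alike in α- and β-cells. CDKN1A, the p53 target that encodes p21, lay between 13.01 CPM (YF1) and 52.1 CPM (OF4) in α-cells, with a median of 26.4, and between 7.76 CPM (YM2) and 68.1 CPM (OM3) in β-cells, with a median of 27.4. The log2 fold change of α over β was 0.10 ± 0.38 (adjusted p = 0.884). In δ-cells 3 of 11 monkeys had no UMI of CDKN1A, the median was 8.96 CPM, and the highest value, 106 CPM in YF4, came from 26 UMIs of 1 cell. PP-cells stood at 2.06, 39.4, 43.1 and 79.7 CPM in OF1, OF2, OM2 and OM4 and at 45.7 and 38.3 CPM in YM1 and YM4. CDKN1A was higher in PP- than in δ-cells in 4 of 5 monkeys (log2 fold change of δ over PP -2.04 ± 0.65, or -1.95 relative to all genes, adjusted p = 0.0335). That call was lost without any one of YM1, YM2, YM4, YF2, YF3, OF2, OM2 or OM4, and under 4 of the other alternatives, with an adjusted p of up to 0.150. CDKN1A did not pass between δ-cells and α-cells (1.21 ± 0.51 for α over δ, adjusted p = 0.0751) or β-cells (1.11 for β over δ, 0.111), but both were called without YF4 (1.62, 0.0216, and 1.497, 0.0363), without OF1 and with at least 10 cells per monkey. CDKN1B, which encodes p27, had medians of 22.6 CPM in α-cells (10.7 to 56.2), 25.2 in β-cells (10.01 to 63.6), 16.1 in δ-cells (0 to 61.4) and 18.3 in PP-cells (0 to 76.0). No pair of types passed for CDKN1B, and the log2 fold changes were between -0.34 and 0.67.

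The summed level of the 4 INK4 genes was on average lower than that of CDK4 in all 4 types, with overlapping ranges in β-, δ- and PP-cells. The sum was 46.5 ± 9.07 CPM (SD, n = 16) in α-cells and 29.6 ± 12.7 CPM (n = 16) in β-cells, against CDK4 levels of 94.4 and 99.1 CPM. The CIP/KIP sums there were 53.5 ± 11.1 and 58.0 ± 21.5 CPM. In δ-cells the INK4 sum was 36.4 ± 35.5 CPM (n = 11), against 96.8 CPM of CDK4 and a CIP/KIP sum of 36.6 ± 29.0. In PP-cells it was 98.8 ± 62.7 CPM (n = 6), against 134.5 CPM of CDK4 and a CIP/KIP sum of 68.0 ± 25.6. No INK4 gene led the family throughout. In α-cells CDKN2D was the highest in 7 monkeys, CDKN2C in 6 and CDKN2A in 3, and in β-cells these numbers were 8, 5 and 3. CDKN2B was never the highest in α- or β-cells.

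CDKN2B encodes p15 and neighbours CDKN2A in the genome. It ranged from 2.56 CPM (YF1) to 15.02 CPM (OM3) in α-cells, with a median of 8.63, and from 0 (YF2) to 12.2 CPM (YM3) in β-cells, with a median of 4.65. In the δ-cells of 11 monkeys 2 UMIs were counted, 1 in YF2 and 1 in OM4, among 4955846 macaque UMIs. Pooled over monkeys, the level in α-cells was 20.4 times that in δ-cells, with a counting interval (95%, exact) of 5.65 to 169. The ratio was 11.5 (3.18 to 95.5) for β-cells and 51.9 (13.9 to 437) for PP-cells. These intervals cover counting error only, and UMIs of a cell or a monkey are not independent. α-cells were higher than δ-cells in 11 of 11 monkeys and β-cells in 10 of 11, and the tests gave log2 fold changes of 4.52 ± 0.85 (4.06 relative to all genes, adjusted p = 7.57e-05) and 3.69 ± 0.88 (3.33 relative to all genes, adjusted p = 0.00168). These fitted values depend on the prior count, as only 2 UMIs stand on the δ side.

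PP-cells had the most CDKN2B. Their levels were 8.22, 14.7, 115 and 42.7 CPM in the old monkeys OF1, OF2, OM2 and OM4 and 10.8 and 4.25 CPM in the young monkeys YM1 and YM4. All 5 monkeys with both types had more in PP- than in δ-cells (log2 fold change of δ over PP -6.10 ± 0.95, or -6.01 relative to all genes, adjusted p = 7.44e-06). Against β-cells, 5 of 6 monkeys had more in PP-cells (β over PP -2.41 ± 0.67, or -2.67 relative to all genes, adjusted p = 0.00838). This second call rested on OM2, where 5 PP-cells held 24 UMIs, 16 of them in 1 cell, and without OM2 the log2 fold change was -1.59 (adjusted p = 0.104). The neighbours PP and α (-1.58 ± 0.67 for α over PP, adjusted p = 0.140) and the neighbours α and β (0.83 ± 0.43, adjusted p = 0.157) did not pass the test. The latter was called without the deepest cells (1.18, adjusted p = 0.0257) and with at least 10 cells per monkey (0.96, 0.0363).

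CDKN2A had a median of 12.6 CPM in α-cells (3.65 in YF1 to 25.5 in OM4) and of 6.53 CPM in β-cells (0 in YF2 to 11.5 in YM4). The ranges overlapped, and although 13 of 16 monkeys had more in α-cells, the log2 fold change of 0.97 ± 0.52 did not pass (adjusted p = 0.185). In δ-cells 6 of 11 monkeys had no UMI and the highest level was 15.9 CPM (OM4). α-cells exceeded δ-cells in 10 of 11 monkeys (2.11 ± 0.73, or 1.64 relative to all genes, adjusted p = 0.0300). This call did not hold with RLE size factors (adjusted p = 0.0573), without the monkey block (0.0510), with at least 10 cells per monkey (0.259) or without YF2, YF3, YF4 or OM2 (up to 0.0668). In PP-cells 84.3 CPM were counted in OF1, 57.4 in OF2 and 11.4 in OM4, and no UMI in OM2, YM1 and YM4. The PP signal sat in few cells, with 50 of the 86 UMIs of OF2 in 1 cell and the 41 UMIs of OF1 in 2 cells. PP-cells did not pass against β-cells (-1.12 ± 0.89 for β over PP, adjusted p = 0.405) or δ-cells (-2.26 ± 0.95 for δ over PP, 0.120). Both were called after thinning (-2.03, adjusted p = 0.0242, and -3.54, 0.0109) and without the monkey block (-2.16, 0.00668, and -2.77, 0.00602).

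CDKN2C and CDKN2D, which encode p18 and p19, passed the test between no pair of types, but some calls appeared under alternatives. CDKN2C had medians of 12.3 CPM in α-cells (4.79 to 21.4), 7.06 in β-cells (0 to 17.9), 3.58 in δ-cells (0 to 46.7) and 5.67 in PP-cells (0 to 108). Both upper ends outside the main types were single cells, with 32 of 33 UMIs in 1 δ-cell of OF1 and 36 of 38 in 1 PP-cell of OM4. CDKN2C was 1.70 ± 0.80 on the log2 scale for α over δ (adjusted p = 0.119), and without OF1 it was 2.81 (0.00644), with calls also under 4 other alternatives (adjusted p up to 0.0221). For δ over PP it was -2.55 ± 1.12 (adjusted p = 0.137), and -4.10 without OF1 (0.00668), with calls under 3 other alternatives. CDKN2D had medians of 12.6 CPM in α-cells (9.31 to 18.0), 8.90 in β-cells (0 to 31.4), 19.7 in δ-cells (0 to 126) and 2.06 in PP-cells (0 to 57.5). It was the only INK4 gene whose mean was highest in δ-cells, at 25.8 ± 36.0 CPM, but the log2 fold change of α over δ was 0.06 ± 0.55 (adjusted p = 0.955). After thinning, CDKN2D was called higher in α- than in β-cells (0.97, adjusted p = 0.0339) and lower in β- than in δ-cells (-1.59, 0.0206).

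To see how widely each gene was detected, every cell was thinned to 10000 macaque UMIs, and shares of cells with at least 1 UMI were counted. CCND2 was found in 59.6% of 4464 α-cells (95% exact binomial interval 58.2 to 61.1), 42.2% of 1213 β-cells (39.4 to 45.0), 17.9% of 112 δ-cells (11.3 to 26.2) and 45.9% of 74 PP-cells (34.3 to 57.9). CDK4 was found in 43.8%, 48.2%, 41.1% and 48.6% of them. At full depth these shares were 85.6%, 80.1%, 54.5% and 77.0% for CCND2 and 75.5%, 79.8%, 60.7% and 79.7% for CDK4. CCND1 was seen in 3.97% of thinned α-cells (3.41 to 4.58) and 14.6% of thinned β-cells (12.7 to 16.7). Each INK4 gene was seen in 12.2% of cells or fewer in every type, and the lowest share was that of CDKN2B in δ-cells, 1 of 112 cells (0.893%, 0.0226 to 4.87). The intervals cover counting error only, and cells of a monkey are not independent.

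**Figure D3:**
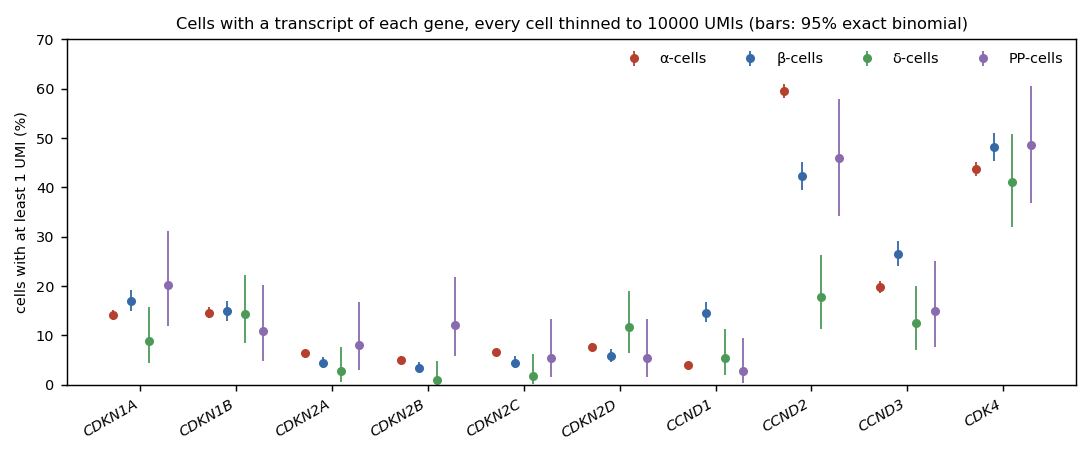
Share of cells with at least 1 UMI of each gene in percent, after thinning every cell to 10000 macaque UMIs, by cell type, with 95% exact binomial intervals. CCND2 is found in 59.6% of α-cells and 17.9% of δ-cells, and the INK4 genes stay at or below 12.2% in all types.

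In α-cells the UMIs of the inhibitors and CCND1 were concentrated in fewer cells than those of the other members. The 5% of α-cells with the most UMIs of a gene (226 cells) held 28.3% of the CCND2 UMIs and 29.8% of the CDK4 UMIs. They held 48.7% of those of CCND3, 54.6% of CDKN1B, 56.98% of CDKN1A, 73.7% to 85.4% of the INK4 genes and 87.6% of CCND1. This share depends on how abundant a gene is, and genes were not compared at matched levels. In β-cells, where its level was also higher, CCND1 was spread more widely, with 62.3% of its UMIs in the top 61 cells. The β-cells that had any held a median of 5 UMIs, against 1 UMI in such α-cells. Single cells with many copies existed, up to 121 UMIs of CDKN2A in an α-cell and 190 UMIs of CCND1 in a β-cell. In thinned cells, at least 1 INK4 gene was seen in 23.2% of α-cells and 16.6% of β-cells, and at least 2 in 2.28% and 1.40%. At least 1 D-type cyclin was seen in 68.8% of α-cells, 62.6% of β-cells, 31.2% of δ-cells and 37 of 74 PP-cells.

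Old and young monkeys were compared within each type, with sex in the model. No member passed in any type: in α-cells 0 of 10 members were called (1 at an unadjusted p under 0.05, DESeq2 0), beside 0% of 12916 genes. In β-cells edgeR called 0 of 10 (2 at an unadjusted p under 0.05, DESeq2 0), beside 0.047% of 10628 genes. In δ-cells 4 members passed the filter on low counts and edgeR called 0 of them (0 at an unadjusted p under 0.05, DESeq2 0), beside 0% of 6484 genes. In PP-cells 9 members passed it and edgeR called 0 (0 at an unadjusted p under 0.05, DESeq2 0), beside 0% of 6568 genes. The members' differences are given below as sizes with their errors.

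CCND2 had the lowest unadjusted p of the members in both main types, and in both its fold change pointed towards young monkeys. In α-cells it lay between 147 CPM (YF4) and 397 CPM (YM2) in young monkeys, with a median of 189, and between 71.9 CPM (OF1) and 210 CPM (OM4) in old ones, with a median of 150. In β-cells the young monkeys lay between 61.5 CPM (YF3) and 232 CPM (YM3), with a median of 127, and the old ones between 41.8 CPM (OF3) and 158 CPM (OF2), with a median of 73.8. The groups overlapped in both types, and 1 of 8 old monkeys stood above the young median in the mean of log2(CPM/10 + 1) in each. The log2 fold changes of old over young were -0.62 ± 0.23 (SE) in α-cells, with an adjusted p of 0.695 by edgeR, and -0.78 ± 0.28 in β-cells, with an adjusted p of 0.754. They stayed between -0.72 and -0.48 in α-cells and between -0.98 and -0.58 in β-cells when each monkey was left out in turn. The difference between the age effects of β- and α-cells was -0.18 ± 0.31 (adjusted p = 0.984).

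The share of thinned cells with CCND2 was 65.7% ± 13.2 (SD) in young and 51.3% ± 14.2 in old monkeys among α-cells. The exact two-sided permutation test over monkeys gave p = 0.0530, or 0.368 after adjustment over the 20 tests of shares. Among β-cells the shares were 49.2% ± 10.7 and 35.3% ± 9.35 (exact permutation test, p = 0.0172, adjusted 0.345). At full depth, where old β-cells held more UMIs than young ones, the difference in β-cells was -3.67 percentage points. In δ-cells CCND2 stood at 98.0, 19.7, 13.9, 8.18, 14.5, 49.6 and 40.5 CPM in YF1 to YF4 and YM1 to YM3, and at 144, 17.9, 3.60 and 8.70 CPM in OF1, OF2, OM2 and OM4. The groups overlapped, and edgeR's log2 fold change was -0.13 ± 1.09 (adjusted p = 1.00). It moved to -1.88 without OF1 and turned positive without OF2, OM2 or OM4 (0.12 to 0.48) and without sex in the model (0.34). The mean of log2(CPM/10 + 1) over δ-cells, to which a single cell adds less, was 1.49 ± 0.78 in young and 0.75 ± 0.38 in old monkeys, with 0 of 4 old monkeys above the young median (exact permutation test, p = 0.118, smallest possible 0.00303). In PP-cells edgeR's value was -0.06 ± 0.76 (adjusted p = 0.999), with 202 of the 208 UMIs of OF1 in 1 cell. The mean of log2(CPM/10 + 1) there was 3.24 ± 0.36 in young and 2.30 ± 0.42 in old monkeys, with 0 of 4 old monkeys above the young median (exact permutation test, p = 0.133, smallest possible 0.0667).

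CDK4 was even between the age groups in α-cells (log2 fold change -0.01 ± 0.12). Its level among β-cells was between 83.9 and 142 CPM in young monkeys (median 116) and between 57.5 and 104 CPM in old ones (median 88.6). The groups overlapped, the log2 fold change was -0.36 ± 0.17 (adjusted p = 0.883), and the age effects of the 2 types differed by -0.37 ± 0.16 (adjusted p = 0.774). The share of thinned β-cells with CDK4 was 54.6% ± 14.3 in young and 42.2% ± 8.65 in old monkeys, and 0 of 8 old monkeys were above the young median (exact permutation test, p = 0.0552, adjusted 0.368). Without YM3, the monkey with the lowest median depth, the adjusted p was 0.0497, and at full depth the difference turned to 1.32 percentage points higher in old monkeys.

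The inhibitors showed no common direction with age. In α-cells CDKN2A (0.48 ± 0.30), CDKN1B (0.38 ± 0.22), CDKN2B (0.23 ± 0.32) and CDKN1A (0.19 ± 0.25) had positive log2 fold changes of old over young, CDKN2D was at 0.00 ± 0.18 and CDKN2C at -0.19 ± 0.29, with adjusted p of 0.781 to 0.998. In β-cells CDKN1B (0.41 ± 0.31), CDKN2D (0.26 ± 0.51) and CDKN1A (0.15 ± 0.40) were positive, and CDKN2B (-0.56 ± 0.59), CDKN2A (-0.43 ± 0.57) and CDKN2C (-0.13 ± 0.57) negative, with adjusted p of 0.992 to 0.999. The mean of log2(CPM/10 + 1) over β-cells was instead slightly higher in old monkeys for CDKN2B (by 0.015), CDKN2A (0.015) and CDKN2C (0.006). The sign for these genes in β-cells thus depended on the measure. The age effects of β- and α-cells differed by -0.93 ± 0.71 for CDKN2A and -0.95 ± 0.64 for CDKN2B, which did not pass (adjusted p = 0.944 and 0.924). In α-cells CDKN2A lay between 3.65 and 15.8 CPM in young monkeys (median 10.1) and between 7.86 and 25.5 CPM in old ones (median 13.6), and the groups overlapped.

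**Figure D4:**
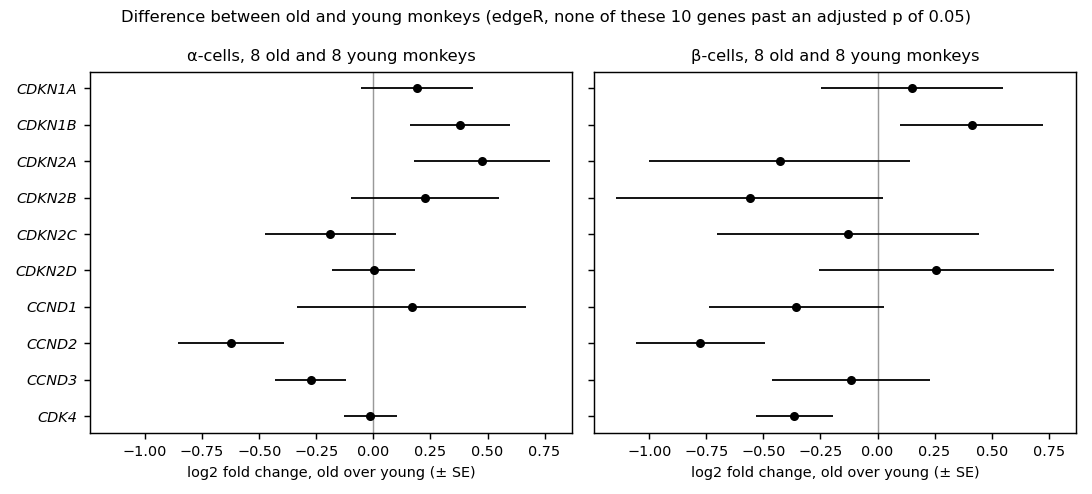
Log2 fold change of old over young monkeys for each of the 10 genes in α-cells (left) and β-cells (right), with bars of 1 SE, derived from edgeR's fold change and F statistic. CCND2 lies at -0.62 in α-cells and -0.78 in β-cells, and no gene shown passed the threshold after adjustment.

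In PP-cells the contrast of age rested on 2 young monkeys. CDKN2A was counted 131 times in the PP-cells of the 4 old monkeys and 0 times among 842005 UMIs of the 2 young ones. At a floor of 3 counts for the young group, the ratio of the pooled levels was 14.4. The floor takes each UMI as independent, but 50 of the 131 lay in 1 cell of OF2 and 41 in 2 cells of OF1. It therefore sets no lower bound for old monkeys. CDKN2D was counted 28 and 0 times, with a ratio of 3.09 at the same floor. Both young monkeys were male, and 127 of the 131 CDKN2A UMIs came from the old females OF1 and OF2. Among males the counts were 4 in OM4 and 0 in OM2, YM1 and YM4, so that age and sex cannot be told apart in this contrast. OM2 of the old monkeys also had no UMI of CDKN2A and OM4 none of CDKN2D, so the groups overlapped at 0. edgeR gave no call (adjusted p = 0.851 for CDKN2A, and CDKN2D did not pass the filter on low counts). The markers of stellate cells summed to 1032 CPM in the PP-cells of OF1, where CDKN2A was highest, to between 0 and 1032 CPM over the 4 old monkeys and to between 0 and 4.25 CPM in the 2 young ones, and the part of such cells in the CDKN2A counts was not tested. In δ-cells the old monkeys had 1.42, 7.17, 0 and 15.9 CPM of CDKN2A, whereas 5 of 7 young monkeys had none and YM2 and YM3 had 14.2 and 4.27 CPM, so that the groups overlapped.

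Males and females were compared in the same fits. No member was called in α-cells (0 at an unadjusted p under 0.05, DESeq2 0), beside 0% of 12916 genes, or in β-cells (1 at an unadjusted p under 0.05, DESeq2 0), beside 0% of 10628 genes. The member with the unadjusted p under 0.05 was CCND1 in β-cells. Females had 18.9, 33.8, 20.03 and 22.2 CPM (YF1 to YF4) and 38.2, 19.001, 8.93 and 2.72 CPM (OF1 to OF4). Males had 83.7, 29.9, 76.7 and 49.8 CPM (YM1 to YM4) and 24.2, 36.3, 103 and 46.6 CPM (OM1 to OM4). Medians were 19.5 CPM in females and 48.2 CPM in males, the groups overlapped (OF1 and YF2 against OM1, OM2 and YM2), and the log2 fold change of males over females was 1.49 ± 0.39 (adjusted p = 0.697 by edgeR). The adjusted p was at least 0.0850 under every alternative, and the fold change stayed between 1.23 and 1.89.

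The difference of the age effect between males and females was also tested. In α-cells it passed for 0 members (1 at an unadjusted p under 0.05, DESeq2 0), beside 0.00707% of 14146 genes. In β-cells it passed for 0 members (1 at an unadjusted p under 0.05, DESeq2 0), beside 0% of 11693 genes. The difference of the age effect between β- and α-cells passed for 0 members as well (1 at an unadjusted p under 0.05, DESeq2 0), beside 0% of 13322 genes. The 2 members with an unadjusted p under 0.05 in the tests by sex were CCND1 in α-cells and CDKN1A in β-cells. CCND1 in α-cells stood at 3.40 ± 1.68 CPM (SD) in young females and 9.48 ± 2.16 in young males, against 7.64 ± 6.35 in old females and 5.59 ± 1.08 in old males, each over 4 monkeys. Young females lay between 1.64 and 5.66 CPM and young males between 6.64 and 11.9 CPM, and the old females spanned the old males. How many other genes separate in this way between 4 and 4 monkeys was not counted. The difference of the age effects was -1.91 ± 0.88 on the log2 scale (adjusted p = 0.877). CDKN1A in β-cells stood at 35.3 ± 22.6 CPM in young and 23.3 ± 10.7 in old females, and at 22.1 ± 13.5 in young and 42.8 ± 17.9 in old males, and the difference of the age effects was 1.65 ± 0.71 (adjusted p = 1.00).

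**Figure D5:**
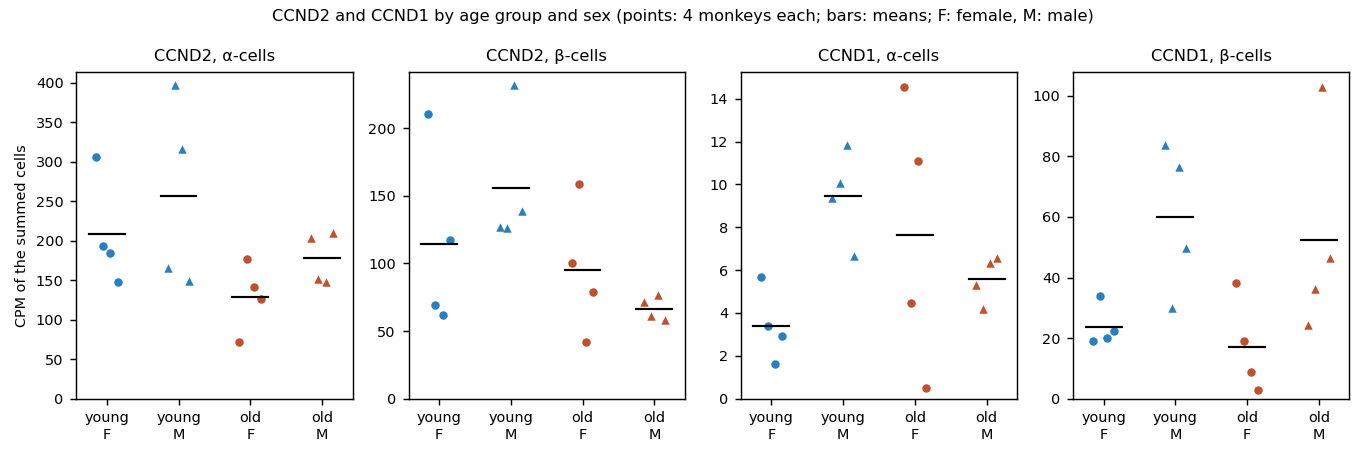
CPM of CCND2 and CCND1 in α- and β-cells by age group and sex, with 1 point per monkey (circles for females, triangles for males) and bars at the means of 4 monkeys. CCND1 in β-cells is between 24.2 and 103 CPM in males and between 2.72 and 38.2 CPM in females, and CCND2 overlaps between the age groups.

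Monkeys differed more in CCND2 than their own libraries did. The SD of the log2 level in α-cells was 0.25 between the 4 libraries of a monkey and 0.60 between the means of monkeys. CCND1 had SDs of 0.78 and 0.88. For the other 8 genes the SD between libraries was the larger, for example 0.43 against 0.28 for CDK4 and 1.01 against 0.50 for CDKN2D. A mean of 4 libraries carries less library noise than each library on its own. For these 8 genes the larger SD between libraries therefore does not show that monkeys differed less than their libraries. Whether they differed beyond library noise was not tested.

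Across the α-cell sums of 16 monkeys, the genes with the levels most like CCND2 were SRA1 (Pearson's r = 0.91), LSM10 (0.89) and GNL3 (0.84), among genes with a mean of at least 10 CPM. CDKN1B was most like PELP1 (0.91), MLLT10 (0.89) and PLEKHB2 (0.85). CDKN1A was most like DTYMK (0.82), TMEM107 (0.79) and RPS27L (0.78), of which RPS27L is a known target of p53. The genes most like the other 7 members, led by WRN for CDKN2A (0.79), GHR for CDKN2B (0.79), SQOR for CDKN2C (0.79), HEPACAM2 for CDKN2D (0.78), VPS45 for CCND1 (0.81), RPAP3 for CCND3 (0.83) and ABHD13 for CDK4 (0.84), had r between 0.74 and 0.84. Among pairs of members the most negative correlation in α-cells was that of CDKN1B and CCND2 (-0.66), which was -0.39 in β-cells. The most positive in β-cells was that of CDKN2A and CCND3 (0.66), which was -0.24 in α-cells. These correlations are descriptions over 16 monkeys, each with a collection day, libraries and depth of its own (median 41388.5 to 92680.5 UMIs per cell), and the top genes were picked as the highest of many.

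The wider pathway was described by 4 lists from general knowledge. Unlike those of the called members, the fold changes of list genes against δ- and PP-cells are not also given relative to the median of all genes. Of 19 partners of the CDK4, retinoblastoma and cyclin E steps, 16 were tested between types, and 4 were higher and 3 lower in α- than in β-cells, beside 25% of all genes called. Among them was CDKN1C, the third CIP/KIP gene (p57), at pooled levels of 55.1 CPM in α-, 6.80 in β-, 9.69 in δ- and 38.7 in PP-cells. It was higher in α- than in β-cells (log2 fold change 3.08 ± 0.37, adjusted p = 2.12e-09) and than in δ-cells (3.24 ± 0.50, adjusted p = 2.10e-06), and lower in δ- than in PP-cells (-2.25 ± 0.60, adjusted p = 0.00966). CCNE1, the cyclin E1 gene that acts after the D-type cyclins, was lower in β-cells than in α-cells (1.34 ± 0.18 for α over β, adjusted p = 5.25e-08), δ-cells (-1.03 ± 0.22 for β over δ, 0.000350) and PP-cells (-2.31 ± 0.26 for β over PP, 1.34e-09). It was also lower in α- and in δ-cells than in PP-cells (-0.97 ± 0.26, adjusted p = 0.0155, and -1.28 ± 0.28, 0.00138). MYC, a transcription factor gene that drives cell growth, was higher in α- than in β-cells (2.63 ± 0.53, adjusted p = 0.000107). CDK6 was counted 1 time in δ-cells and E2F3 1 time in PP-cells, and both were called lower there than in α-cells (adjusted p = 0.00136 and 0.0335), where they had 4.22 and 4.24 CPM.

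Of 24 listed genes of p53 and its targets, 21 were tested between types. Between α- and β-cells 4 were higher and 3 lower in α-cells, beside 25% of all genes called. Against δ-cells 9 were higher in α-cells and 0 lower, beside 23.2% of all genes, of which 2436 were higher and 563 lower. PLK2, a kinase gene induced by p53, was higher in α- than in β-cells (3.25 ± 0.26, adjusted p = 1.06e-14), than in δ-cells (1.87 ± 0.31, 7.45e-06) and than in PP-cells (1.54 ± 0.41, 0.0155). The antiproliferative gene BTG2 was lower in β-cells than in α- (1.97 ± 0.18 for α over β, adjusted p = 9.63e-13), δ- (-1.11 ± 0.21, 9.19e-05) and PP-cells (-2.56 ± 0.26, 4.25e-11). MDM2, which encodes the ubiquitin ligase of p53, was higher in β- than in PP-cells (2.97 ± 0.70, adjusted p = 0.00183). TP53INP1 was lower in δ-cells than in α-cells (1.44 ± 0.26 for α over δ, adjusted p = 2.83e-05) and PP-cells (-1.75 ± 0.32, 0.000133). CDKN1A, the cell cycle target of p53 among the members, had its lowest mean in δ-cells, but was not called there against α- or β-cells. The list had no common order of types, as the pooled level of BTG2 was lowest in β-cells (100 CPM) and that of MDM2 in PP-cells (4.13 CPM). A common cause was not tested. Between β- and δ-cells 5 of the 21 were higher and 2 lower in β-cells, beside 19.8% of all genes, and between δ- and PP-cells 6 were lower in δ-cells, beside 10.3%.

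Of the proliferation list, PCNA, which encodes the sliding clamp of DNA polymerase and also acts in DNA repair, had the highest pooled level of the list in each type, at 30.9 CPM in α-, 34.1 in β-, 26.8 in δ- and 47.2 in PP-cells. MKI67, a marker of dividing cells, was counted in α-cells of 5 monkeys (2.16 CPM pooled), in β-cells of 1, in δ-cells of 2 and in PP-cells of none, and 2 of 21 tested list genes were higher in α- than in β-cells, beside 25% of all genes called. Among 14 tested Polycomb genes, which are known to repress the INK4 locus, 2 were higher in α- than in β-cells, beside 25% of all genes called, and 3 were higher and 1 lower in α- than in δ-cells, beside 23.2%. RNF2, which encodes the ubiquitin ligase of that complex, was lower in α-cells than in δ-cells (-1.34 ± 0.26, adjusted p = 9.28e-05) and PP-cells (-1.54 ± 0.33, 0.00196), and lower in β- than in δ-cells (-1.04 ± 0.25, 0.00227). edgeR called no gene of the 4 lists with age in the 4 types, or with sex in α- and β-cells, the types in which sex was tested (3 or fewer per list and comparison at an unadjusted p under 0.05).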

How the data were processed

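Single islet cells of 16 cynomolgus monkeys were picked by mouth pipette and sequenced by a modified STRT-seq protocol. The authors aligned reads with TopHat 2.0.12 to Macaca_fascicularis_5.0, counted them per gene with htseq-count and collapsed UMIs, and CASAVA 1.8 appears in the submitters' processing notes. The authors deposited raw UMI counts per gene and cell, neither filtered nor pooled. CDKN2A is one of 14 genes listed after the spike-ins, and how these were annotated is not given in the sources used here.

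Of 6141 deposited cells, 5908 exceeded both 800 genes and 10000 UMIs and were used. The study's filter on mapping rate was not used here, and no doublet caller was run. Spike-ins (95, 5.41% of UMIs) were left out of CPM and tests. The libraries share cell barcodes (93 of 96 occur in all 64), and 0 cells held identical counts. Counts were summed per monkey and type where at least 5 cells existed. Monkeys were the replicates. edgeR 4.0.16 (quasi-likelihood test, TMM, filterByExpr) in R 4.3.3 was fitted over all genes with Benjamini-Hochberg adjustment and a threshold of 0.05, with monkey as a block between types and sex as a covariate for age. The quasi-likelihood test returns no SE. Each SE of a fold change given here is the absolute log2 fold change divided by the square root of the F statistic. Such an SE is approximate and can be unreliable where the fold change is near 0 or the counts are few. Shares of cells and mean log2(CPM/10 + 1) were compared by two-sided exact permutation tests over monkeys. The main fits were also run on simulated data with added fold changes, as a check of the code only. The outcome is not given here, and no power of the tests of age or sex is drawn from it. DESeq2 1.42.0, other scalings, filters, cell selections and leaving out each monkey were alternatives.

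The 10 genes are the named genes, with up to 5 called genes of the 4 pathway lists per comparison. Replicate numbers in the labels do not pair young with old monkeys. The members, lists and tests were chosen with earlier results of these data known. No sequence is shown, as none was used here.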

Additional observations from a re-analysis of the deposited data

Results flagged for a closer look

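In 70 groups of 4 to 8 monkeys (a gene in a type and age group), the highest or lowest monkey was compared with the nearest other one, and 15 stood apart beyond Dixon's 95% critical value. That value flags about 1 group in 20 by chance only where levels are normally distributed. Many counts in δ- and PP-cells are sparse, and 1 UMI is flagged by construction where the other monkeys have none. The 15 flags therefore do not measure an excess over chance. In α-cells CDKN1B was low in YM3 among young monkeys (10.7 CPM, nearest 18.3) and high in OF1 among old ones (56.2 CPM, nearest 35.5), on 191 and 792 UMIs. In β-cells CDKN1B was low in YF3 (10.01 CPM, nearest 20.8), on 21 UMIs, and CCND1 was high in OM3 (103 CPM, nearest 46.6), on 913 UMIs of 75 cells.

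The other flagged groups are of δ- and PP-cells and rest on 38 UMIs or fewer, apart from CCND2 and CCND3. Among young monkeys' δ-cells these were CDKN1A in YF4 (106 CPM, all 26 UMIs in 1 cell), CDKN2A in YM2 (14.2 CPM, 6 UMIs) and CDKN2B in YF2 (3.93 CPM, 1 UMI). Among old monkeys' δ-cells they were CDKN2B in OM4 (1.45 CPM, 1 UMI), CDKN2C in OF1 (46.7 CPM, 32 of 33 UMIs in 1 cell), CDKN2D in OM2 (126 CPM, 28 of 35 UMIs in 1 cell) and CCND2 in OF1 (144 CPM, 101 of 102 UMIs in 1 cell). Among old monkeys' PP-cells they were CDKN2C in OM4 (108 CPM, 36 of 38 UMIs in 1 cell), CDKN2D in OM2 (57.5 CPM, 7 of 12 UMIs in 1 cell), CCND1 in OM4 (28.5 CPM, 9 of 10 UMIs in 1 cell) and CCND3 in OM4 (196 CPM, 65 of 69 UMIs in 1 cell).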

How the results depend on the processing

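No result changed direction among calls. The calls of CCND1 and CCND2 between α- and β-cells, of CCND1 between β- and δ-cells, of CCND2 between δ-cells and α- or β-cells, and of CDKN2B between δ-cells and the other types held without any one monkey and under every alternative in which the gene was tested. After thinning, CDKN2B did not pass the filter on low counts between types, so that the counts of members after thinning are of 9 genes. Members called between α- and PP-cells (0) became 2 with DESeq2 and 1 with a highest hormone at least 2 times the second or without the monkey block. Between β- and PP-cells the count (1) was 3 with DESeq2, RLE or no monkey block, 2 with the hormone rule, without the deepest cells or after thinning, and 0 with at least 10 cells per monkey. Between δ- and PP-cells (3) it was 5 with DESeq2 or no monkey block and 1 with at least 10 cells. Leaving out 1 monkey gave 2 to 5 members between α- and δ-cells, 0 to 2 between β- and PP-cells, and 0 to 1 in the tests of shares.

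Genes called by DESeq2 against edgeR were 1350 against 852 (α and PP), 2103 against 1334 (δ and PP), 23 against 0 (age, α), 39 against 5 (age, β), 3 against 0 (age, δ), 2 against 0 (age, PP), 26 against 0 (sex, α), 11 against 0 (sex, β), 8 against 1 and 2 against 0 (age by sex, α and β) and 10 against 0 (age by type). With at least 10 cells they were 5135 against 3222 (α and β), 47 against 852 (α and PP), 372 against 2221 (β and PP), 272 against 1334 (δ and PP) and 3 against 0 (age, δ), and age in PP-cells could not be fitted. Without the filter on low counts they were 21 (age, β), 3 (age, δ), 9 (age, PP), 23 (sex, β) and 1 (age by sex, β). After thinning they were 685 (δ and PP), 1 (age, β) and 2 (age by type), without the monkey block 2269 (δ and PP), and without sex 1 (age, PP). Without 1 monkey they ranged from 2 to 8 (age, β), 0 to 10 (age, PP), 0 to 1 (sex, α), 1 to 2 (age by sex, α), 0 to 2 (sex, β), 0 to 1 (age by sex, β) and 0 to 1 (age by type). The causes were not tested.

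With RLE in place of TMM the genes higher and lower were 1663 and 787 against 2436 and 563 (α over δ), 1131 and 971 against 1870 and 679 (β over δ), 421 and 329 against 622 and 230 (α over PP), and 960 and 1123 against 1361 and 860 (β over PP). Same-numbered young and old monkeys did not deviate together (correlations -0.0802 to 0.133), and with the replicate number as a block 0 members were called with age, with 0 genes in α- and 6 in β-cells. The values of the INK4 genes and CCND1 in δ- and PP-cells mostly rest on few cells, and the part of depth in their sparseness was not tested.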
